A study of Mus musculus with 2 samples.

Results

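The genes described here build and read the surroundings of a cell: collagens, laminins and other matrix proteins, the integrins, cadherins, protocadherins and claudins that hold cells to matrix and to each other, the proteases that cut them, and the semaphorins, plexins, ephrins and Eph receptors that guide cell position. They were chosen by gene symbol, as the listed members of 23 symbol stems with Ephb3 left out. The rule met 47 of the 1448 genes listed in the deposited tables. Of the 23 stems, 18 had at least 1 listed gene, while Timp, Epha, Efnb, Lamc and Dsc had none. Adamtsl5, an ADAMTS-like protein, counted as a relative of its family, and Colgalt2, a glycosyltransferase that shares letters with the collagens, did not count.

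RNA was sequenced from small intestinal organoids, which are crypt-derived epithelial cultures grown in Matrigel, a laminin-rich basement membrane extract, with EGF, Noggin and R-spondin. The AdipKO organoids came from Adipfl/flpVilli-CreT mice, which carry floxed adiponectin alleles and a Cre recombinase under the villin promoter, on in gut epithelium. The WT organoids were grown from control Adipfl/fl mice, with the same floxed alleles and no Cre. There was 1 library per genotype and the sources used here do not give the number of animals or cultures behind each, so the differences below could not be set against a spread between replicates and carry no p-values. The age of the animals was not given for these libraries.

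The values were estimated read counts per gene, not scaled to library size. They summed over the listed genes to 689004.63 for AdipKO and 802994.76 for WT, and these sums are not depths, because the tables hold a selected part of each library. The log2 count ratios of the listed genes left a gap from -1.04 to 0.96. That each gene below differed by about 2-fold or more was therefore set by the authors' selection, and only the direction and the size beyond that limit were left to describe. Adipoq, the targeted gene, was not among the listed genes, so the genotype of each library rests on its label, and so does every direction below. The headers of the value columns start with KO and WT and share a suffix that the sources used here do not explain. Among genes of the crypt base, 6 that the study names from these RNA data were searched for, chosen after their values had been seen, and all 6 were listed and lower in the library labelled AdipKO. Lgr5, the marker of intestinal stem cells, had 3127 counts in AdipKO organoids against 7858 in WT organoids. Olfm4, another stem cell marker, had 34083 counts in AdipKO organoids against 92810 in WT organoids, and Lyz1, the lysozyme of Paneth cells, had 16698 in AdipKO organoids against 34709 in WT organoids. The log2 ratios of the 6 genes, which include Ascl2, Tnfrsf19 and Mycl, lay between -1.55 and -1.06. These values do not check the labels, and their conflict with the direction the study reports was not resolved here. If the 2 labels were exchanged, every direction below would reverse. The part of such cells in the differences below was not tested. None of the 9 epithelial markers searched for, Epcam and Cdh1 among them, was listed either, so the labelled cell type was not checked against them.

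Epithelial cells stand on a basement membrane of laminin and collagen that integrins in the basal cell membrane bind. Neighbouring cells are joined by tight junctions, in which claudins seal the gap, and by cadherins in adherens junctions and desmosomes. In the crypt, Eph receptors and their membrane-bound ephrin ligands sort cells along the axis, and Paneth cells at its base secrete matrilysin, the metalloproteinase encoded by Mmp7. Semaphorins and plexins are ligands and receptors first known from the steering of nerve fibres and are also used by epithelia.

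These genes were mostly lower in the AdipKO library. By sign, 39 of the 47 (83.0%) were lower and 8 (17.0%) were higher, where the shares over all listed genes were 62.2% lower and 37.8% higher. When 1 was added to each count as a pseudocount, 39 passed 2-fold downwards and 8 upwards, beside 62.2% and 35.3% of all listed genes. The median log2 ratio of AdipKO over WT was -1.55 for the 47 genes and -1.15 for all listed genes. For the 47 genes it was -1.35 with 3 counts in place of each 0. The median count in the higher library was 35 for the 47 genes and 81.4 for all listed genes. Among members with at least 20 counts the median log2 ratio was -1.23, and with a pseudocount of 5 it was -1.20 for the 47 genes. No like values are given here for all listed genes, so a larger size of change in the members is not shown. The families had been picked with earlier results of these data known, so these shares are no independent evidence of a direction. The exact intervals of all 47 count ratios left out equality, as did those of 1429 of the 1448 listed genes, which a selection by fold favours. Members at 0 in 1 library had at least 6 counts in the other. Whether the selection also used a limit on counts or significance is not known here. Such a limit would build this outcome in, so it is no evidence about the members. No set test was made, and a listed set of this kind is described by these counts alone. In bulk RNA, fewer cells of a type and less RNA per cell cannot be told apart.

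By sign, thinly and well counted genes were both mostly lower. Of the 17 genes that stayed under 20 counts in both libraries, 14 (82.4%) were lower, beside 68.0% of all listed genes in that range. Without the clustered protocadherins described below, whose reads may be shared between genes, 7 of 10 (70.0%) were lower, near the share of all listed genes. Of the 30 genes with at least 20 counts, 25 (83.3%) were lower, beside 60.9% of all listed genes. Without the clustered protocadherins, 22 of 27 (81.5%) were lower. Leaving them out was chosen after the data had been seen. RefSeq holds 364 protein-coding genes with symbols of these families, of which 12.9% were listed, against 6.51% of all 21896 protein-coding genes. The families were picked with earlier results of these data known, so the higher share is no independent evidence of enrichment. Nothing is known from these tables about the level of the family genes that were not listed.

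**Figure D1:**
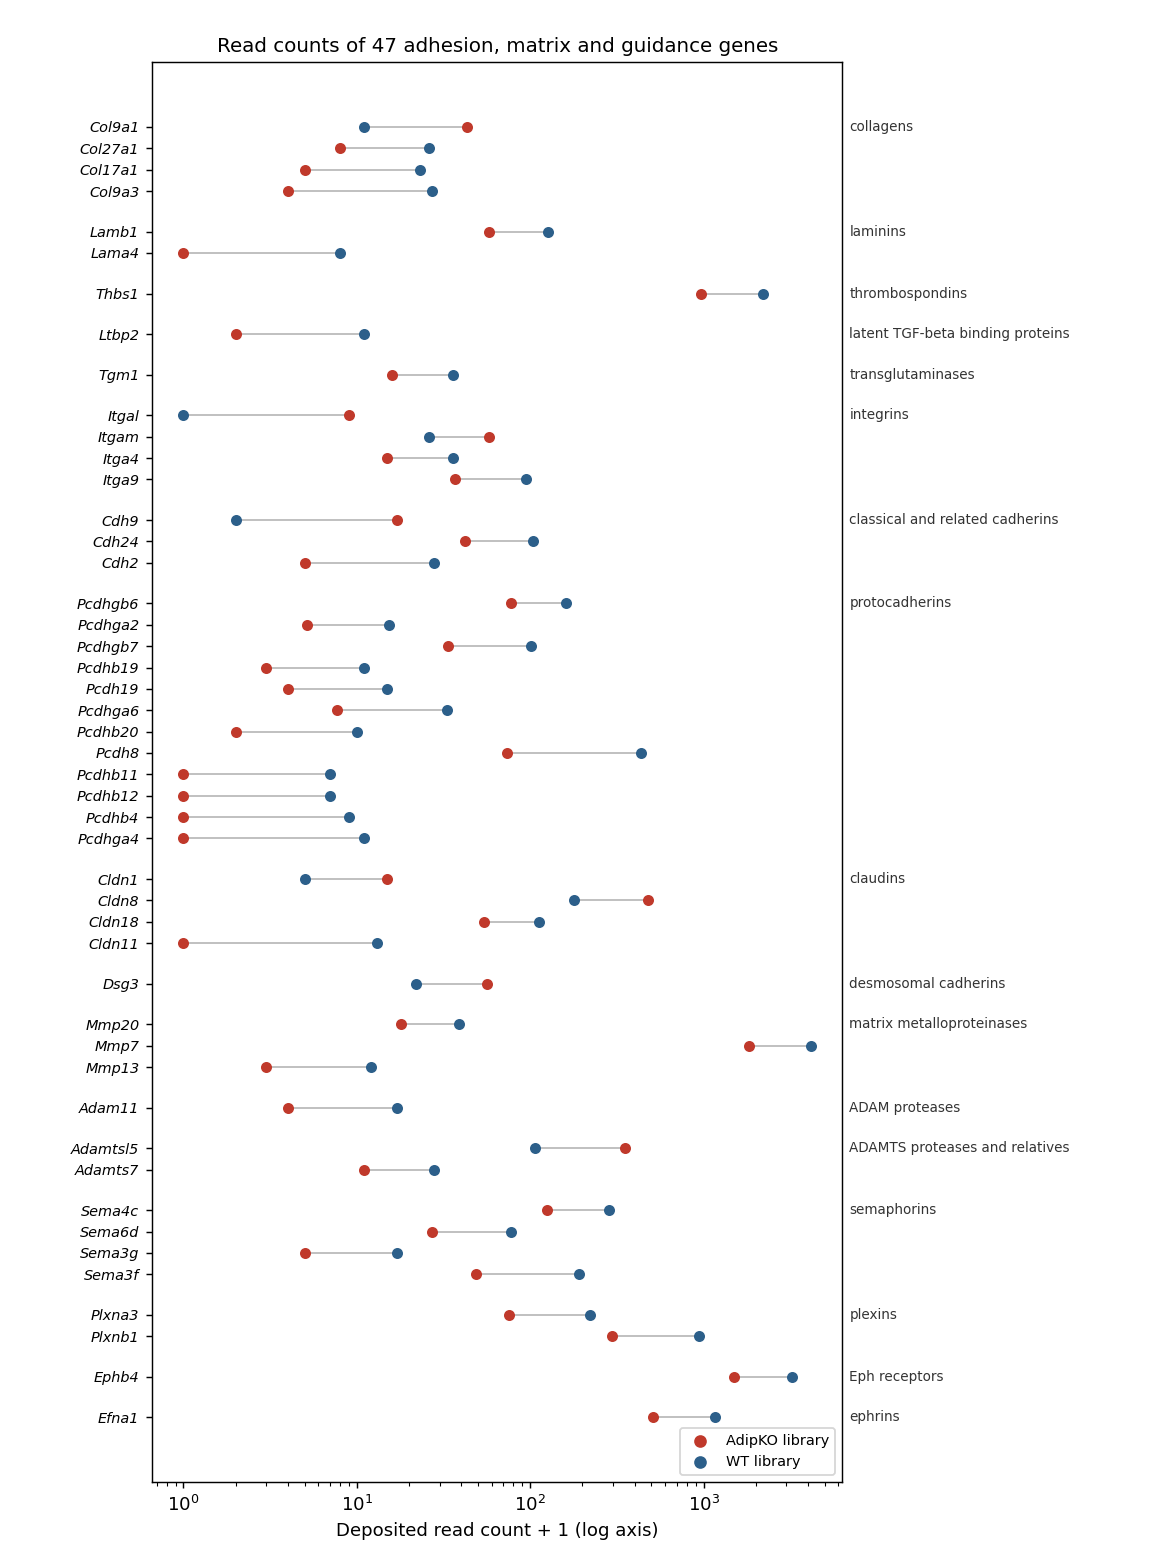
Each row is 1 gene, grouped by family, with its deposited read count plus 1 on a log axis in the AdipKO library (red) and in the WT library (blue). The red point lies left of the blue one in 39 of 47 rows, and the counts span 0 to 4167.

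In the AdipKO library all 8 guidance genes were lower, beside 62.2% of all listed genes, at a median log2 ratio of -1.53. They comprised 5 ligands, which are Efna1 and 4 semaphorins, and 3 receptors, which are Ephb4 and 2 plexins. Ephb4, the receptor for ephrin-B2, had 1504 counts in AdipKO organoids against 3257 in WT organoids, and was 2.17-fold lower (exact 95% Clopper-Pearson interval 2.04 to 2.30, which like all intervals here covers counting error only). The gene (NCBI gene 13846) lies on chromosome 5 in mm10. Efna1, a lipid-anchored ephrin that binds the EphA class of receptors, had 507 counts in AdipKO organoids against 1165 in WT organoids, 2.30-fold lower (2.07 to 2.56). Its preferred receptors of the EphA class were not among the listed genes, and neither were the ephrin-B ligands of Ephb4. Both genes were abundant for their length. Per kilobase of the longest annotated transcript, Ephb4 had 347 counts in AdipKO organoids against 750 in WT organoids, and Efna1 had 311 in AdipKO organoids against 714 in WT organoids, which placed them after Mmp7 alone among the 47 genes in the WT library.

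The plexins and semaphorins were lower together by sign. Plxnb1, a receptor for class 4 semaphorins on chromosome 9 (109093849 to 109119915, mm10), had 294 counts in AdipKO organoids against 942 in WT organoids, 3.20-fold lower (2.81 to 3.66). Plxna3, which pairs with neuropilins to receive secreted class 3 semaphorins, had 74 counts in AdipKO organoids against 219 in WT organoids, 2.96-fold lower (2.26 to 3.91). A secreted ligand of that class, Sema3f, had 48 counts in AdipKO organoids against 189 in WT organoids and was 3.94-fold lower (2.86 to 5.52). Sema3g, another secreted ligand, rested on 4 counts in AdipKO organoids against 16 in WT organoids. The membrane-bound Sema4c had 124 counts in AdipKO organoids against 284 in WT organoids, 2.29-fold lower (1.85 to 2.85). Sema6d, also bound to the membrane, had 26 counts in AdipKO organoids against 76 in WT organoids, 2.92-fold lower (1.85 to 4.76). The intervals of Plxnb1, Plxna3, Sema3f and Sema6d overlapped, while that of Sema4c ended just below the start of that of Sema3f. The order of these changes was not tested. The neuropilins Nrp1 and Nrp2 were not listed.

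Guidance genes outside the families did not all go one way. Of 23 such genes, 3 were listed, with 2 lower and 1 higher, and the log2 ratios had a median of -1.57 but a mean of -0.49. Unc5a, a netrin receptor, had 54 counts in AdipKO organoids against 176 in WT organoids, 3.26-fold lower (2.39 to 4.51). Dpysl3, a cytoskeletal protein downstream of semaphorins, had 90 counts in AdipKO organoids against 270 in WT organoids, 3-fold lower (2.35 to 3.85). Its relative Dpysl5, outside that list and picked after its values had been seen, had 197 counts in AdipKO organoids against 483 in WT organoids. Robo3, a receptor of the Roundabout family, went the other way, with 23 counts in AdipKO organoids against 6 in WT organoids.

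**Figure D2:**
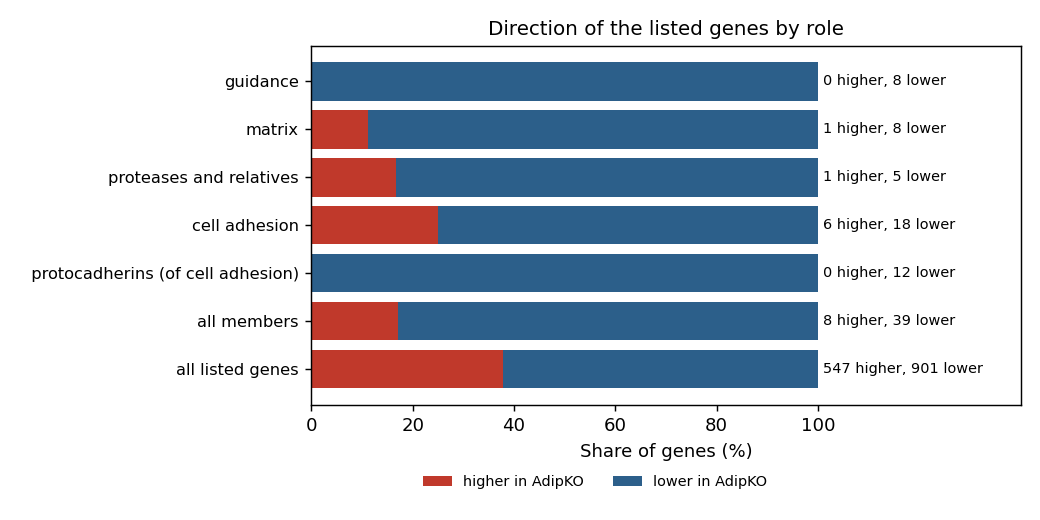
Bars give the share (%) of listed genes higher (red) or lower (blue) in the AdipKO library, by sign, for each role, for the protocadherins, for all 47 members and for all 1448 listed genes. All 8 guidance genes and all 12 protocadherins were lower, while 37.8% of all listed genes were higher.

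Of the 9 matrix genes, 8 (88.9%) were lower in the AdipKO library, beside 62.2% of all listed genes, and Col9a1 was higher. Their median log2 ratio was -1.70, or -1.22 with 3 counts in place of the 0 of Lama4. Thbs1 was by far the best counted. It encodes thrombospondin-1, a secreted adhesion-modulating protein that can activate latent TGF-beta, and had 960 counts in AdipKO organoids against 2212 in WT organoids, 2.30-fold lower (2.14 to 2.49). Lamb1, a laminin beta chain of basement membranes, had 57 counts in AdipKO organoids against 125 in WT organoids, 2.19-fold lower (1.59 to 3.05). Lama4, a laminin alpha chain known from vessel and muscle basement membranes, had 0 counts in AdipKO organoids against 7 in WT organoids. That was 2.33-fold lower with the 0 set to 3 counts (exact interval from 1.44). Ltbp2, a microfibril protein of the latent TGF-beta binding family, had 1 count in AdipKO organoids against 10 in WT organoids, with an interval of 1.42 to 434-fold lower. Tgm1, the transglutaminase that crosslinks the cornified envelope of skin, had 15 counts in AdipKO organoids against 35 in WT organoids, 2.33-fold lower (1.24 to 4.60).

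The 4 listed collagens did not move as one. Col9a1 and Col9a3 encode chains that assemble into the same molecule, collagen IX, a fibril-associated collagen of cartilage. Col9a1 had 42 counts in AdipKO organoids against 10 in WT organoids, 4.20-fold higher (2.07 to 9.39). Col9a3 had 3 counts in AdipKO organoids against 26 in WT organoids, 8.67-fold lower (2.66 to 44.7). These partner chains differed in direction, at few counts each. Col17a1, a transmembrane collagen of hemidesmosomes that anchors epithelium to its basement membrane, had 4 counts in AdipKO organoids against 22 in WT organoids, 5.5-fold lower (1.87 to 22.0). Col27a1, a fibrillar collagen of cartilage, had 7 counts in AdipKO organoids against 25 in WT organoids, 3.57-fold lower (1.502 to 9.78).

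Partners of the matrix genes were searched for as well. Of 27 partners of basement membrane and matrix, the proteoglycan gene Vcan alone was listed, with 8 counts in AdipKO organoids against 20 in WT organoids. Of 24 genes for matrix crosslinking and processing, 3 were listed, 2 lower and 1 higher, and their log2 ratios had a median of -1.14 but a mean of -0.20. Serpine2, an inhibitor of thrombin and plasminogen activators, had 97 counts in AdipKO organoids against 29 in WT organoids, 3.34-fold higher (2.19 to 5.25). P4ha2, which hydroxylates prolines of collagen chains, had 251 counts in AdipKO organoids against 566 in WT organoids, 2.25-fold lower (1.94 to 2.63), and Loxl2, a lysyl oxidase relative that crosslinks collagen, had 16 counts in AdipKO organoids against 36.51 in WT organoids. Of 21 genes of TGF-beta and BMP signalling, Bmp2 alone was listed, with 52 counts in AdipKO organoids against 151 in WT organoids, 2.90-fold lower (2.11 to 4.06). Outside that list, and named after their values had been seen, the ligand genes Bmp6 and Gdf11 were lower and Gdf15, a stress-induced member of the same superfamily, was higher. Bmp6 had 9 counts in AdipKO organoids against 29 in WT organoids, Gdf11 had 27 in AdipKO organoids against 89 in WT organoids, and Gdf15 had 4493 in AdipKO organoids against 817 in WT organoids.

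Of the 6 proteases and relatives, 5 (83.3%) were lower in the AdipKO library and Adamtsl5 was higher. Over all listed genes 62.2% were lower, and 6 genes are too few to set apart from that share. Mmp7 was the most abundant of all 47 genes, with 1817 counts in AdipKO organoids against 4167 in WT organoids, 2.29-fold lower (2.17 to 2.42). In mice its product, matrilysin, cuts the alpha-defensin precursors of Paneth cells into active peptides. Per kilobase it had 1701 counts in AdipKO organoids against 3902 in WT organoids. Mmp20, known from tooth enamel, had 17 counts in AdipKO organoids against 38 in WT organoids, 2.24-fold lower (1.23 to 4.22). Mmp13, a collagenase, had 2 counts in AdipKO organoids against 11 in WT organoids, with an interval of 1.20 to 51.1-fold lower. These 3 metalloproteinase genes, all lower, lie on chromosome 9, Mmp13 at 7272514 to 7283333, Mmp20 at 7628231 to 7674968 and Mmp7 at 7692090 to 7699585 (mm10). Mmp20 and Mmp7 are 17121 bases apart on the same strand, and all 3 had whole-number counts.

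The promoters of these 3 genes are shown because they carry a like pair of letters before the start, and no link to the lower counts was tested. They were picked after the windows had been searched. Each line gives the 120 bases before the annotated start from RefSeq (GRCm38.p6, plus strand), for Mmp7 chr9:7691970-7692089, for Mmp13 chr9:7272394-7272513 and for Mmp20 chr9:7628111-7628230. Capitals mark TGANTCA, a loose form of the AP-1 motif that allows any middle base and reads the same on both strands. They also mark TATAAA, the letters of the TATA box, at any position in the window, and the motifs did not overlap. The AP-1 motif itself has C or G in the middle, so the stretch of Mmp20, TGAATCA, meets the loose form only.
Mmp7: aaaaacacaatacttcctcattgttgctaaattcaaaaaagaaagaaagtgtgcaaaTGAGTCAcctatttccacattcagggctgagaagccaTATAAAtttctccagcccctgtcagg
Mmp13: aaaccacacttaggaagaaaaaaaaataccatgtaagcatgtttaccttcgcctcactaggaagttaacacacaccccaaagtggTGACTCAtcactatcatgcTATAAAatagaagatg
Mmp20: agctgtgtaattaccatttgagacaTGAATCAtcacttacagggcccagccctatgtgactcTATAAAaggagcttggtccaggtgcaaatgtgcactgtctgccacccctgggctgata
The first base of TGANTCA stood at position -63 for Mmp7, -35 for Mmp13 and -95 for Mmp20, counted back from the start. That of TATAAA stood at -26, -16 and -58 in the same order. Of 32851 promoter windows of this length in the same table, 3.41% held TGANTCA, 6.34% held TATAAA on either strand and 0.359% held both. RefSeq promoters were matched for 27 of the 47 genes, with 34 windows, of which 3 held both motifs, those shown above. A match describes letters and shows no binding.

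The remaining proteases and relatives were Adamts7, Adam11 and Adamtsl5. Adamts7, a secreted metalloproteinase, had 10 counts in AdipKO organoids against 27 in WT organoids, 2.70-fold lower (1.27 to 6.25). Adam11, a brain-enriched family member without protease activity, had 3 counts in AdipKO organoids against 16 in WT organoids. Adamtsl5, which lacks a protease domain and binds fibrillin microfibrils, had 352 counts in AdipKO organoids against 106 in WT organoids, 3.32-fold higher (2.67 to 4.17). It lies on chromosome 10 (mm10) and was, with Cldn8, one of the 2 genes with more than 100 counts that were higher.

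**Figure D3:**
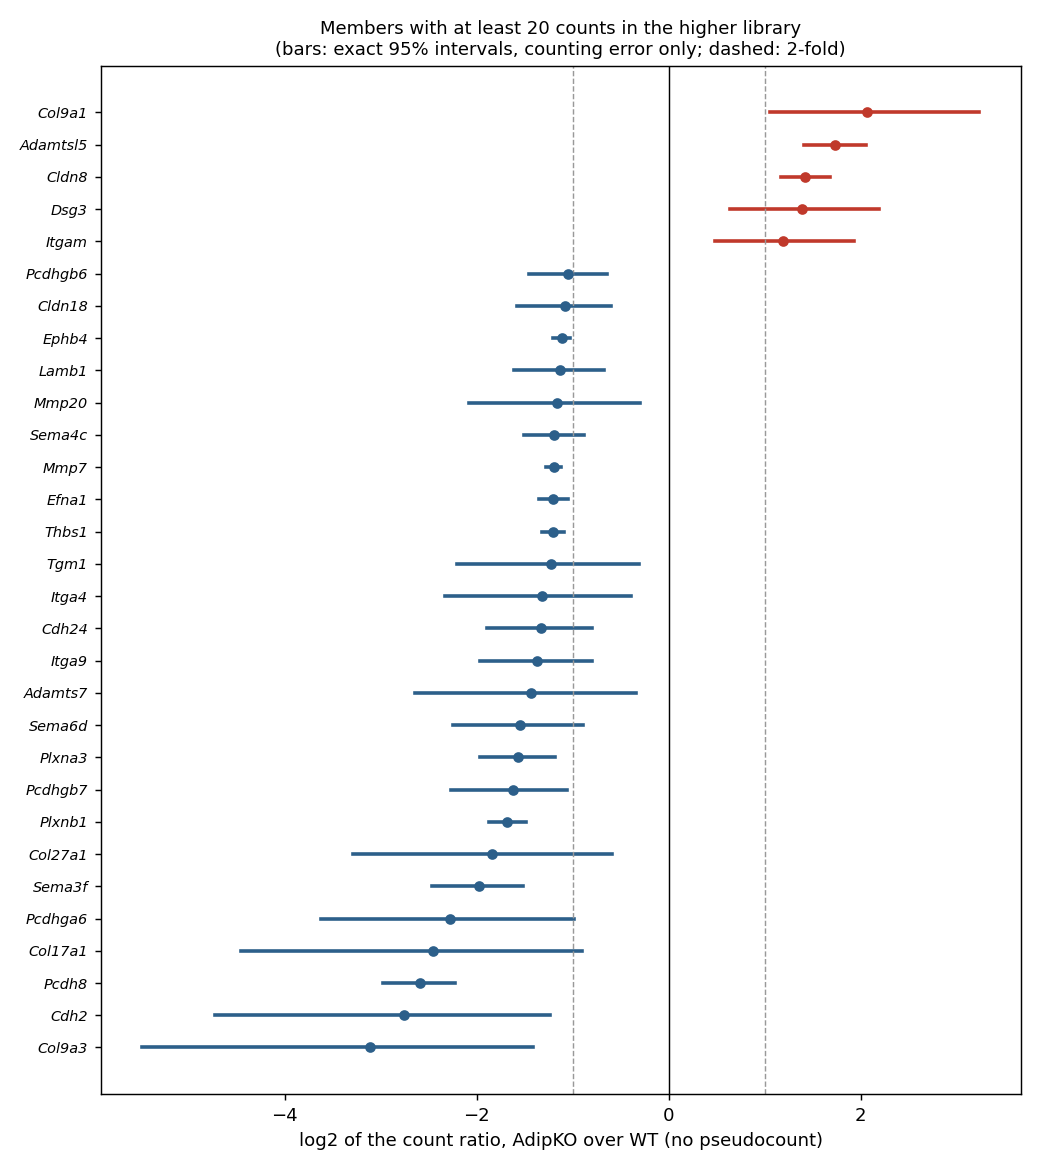
Points give the log2 of the count ratio, AdipKO over WT, for the 30 genes that reached 20 counts in either library, and bars give the exact 95% intervals from counting error. The intervals of the 25 lower genes lie below 0 and those of the 5 higher genes (Col9a1, Adamtsl5, Cldn8, Dsg3 and Itgam) above it, and many cross the dashed 2-fold lines.

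Among the 24 cell adhesion genes, 18 were lower in the AdipKO library and 6 were higher, where 62.2% of all listed genes were lower. The 12 protocadherins made up most of the lower ones. Outside them the adhesion genes had no common direction. Of the integrins 2 were lower and 2 higher, and of the claudins 2 were lower and 2 higher. Of the other cadherins 2 were lower and 1 was higher, and the desmosomal cadherin Dsg3 was higher. All 12 protocadherins were lower, at a median log2 ratio of -2.22, or -1.66 with 3 counts in place of each 0. Pcdh8, a non-clustered protocadherin that takes part in cell sorting in the embryo, had 72 counts in AdipKO organoids against 434 in WT organoids, 6.03-fold lower (4.69 to 7.85). Its interval lay wholly beyond those of Ephb4, Efna1, Mmp7 and Thbs1, so this change was larger than theirs beyond counting error. The gene lies on chromosome 14 (NCBI gene 18530). Pcdh19, of the same non-clustered class and on the X chromosome, had 3 counts in AdipKO organoids against 14 in WT organoids.

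The other 10 protocadherins belong to the gene cluster on chromosome 18, between 37307455 and 37841873 (mm10), in which neighbouring promoters drive single variable exons. RefSeq holds 22 beta, 21 gamma and 14 alpha genes of this cluster, of which 5, 5 and 0 were listed. The gamma genes splice their variable exon to shared constant exons, and all 5 had decimals in their counts, as programs give when reads are divided between genes, so the share of each is uncertain. Pcdhgb6 had 76.96 counts in AdipKO organoids against 159.11 in WT organoids, 2.07-fold lower (1.56 to 2.75). Pcdhgb7 had 32.4 counts in AdipKO organoids against 99.57 in WT organoids, 3.07-fold lower (2.08 to 4.81). Pcdhga6 had 6.65 counts in AdipKO organoids against 32.3 in WT organoids, 4.86-fold lower (1.98 to 12.3). Pcdhga2 had 4.14 counts in AdipKO organoids against 14.37 in WT organoids. Pcdhga4 had 0 in AdipKO organoids against 9.99 in WT organoids, 3.33-fold lower with the 0 set to 3 counts (exact interval from 2.24).

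The beta genes of the cluster were barely counted, with 0 to 2 counts in AdipKO organoids against 6 to 10 in WT organoids. Pcdhb4 had 0 counts in AdipKO organoids against 8 in WT organoids, 2.67-fold lower with the 0 set to 3 counts (exact interval from 1.71). Pcdhb11 and Pcdhb12 had 0 counts each in AdipKO organoids against 6 each in WT organoids. That was 2-fold lower with the 0 set to 3 counts (exact interval from 1.18). Pcdhb19 had 2 counts in AdipKO organoids against 10 in WT organoids, and Pcdhb20 had 1 count in AdipKO organoids against 9 in WT organoids. The 5 beta genes are close copies of each other, so reads may be shared although their counts are whole. Without the 10 clustered genes, 29 of 37 genes (78.4%) were lower and the median log2 ratio was -1.31, an alternative chosen after the data had been seen.

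The listed cadherins included none of the main epithelial type. Cdh24, a type II cadherin, had 41 counts in AdipKO organoids against 103 in WT organoids, 2.51-fold lower (1.73 to 3.70). Cdh2, N-cadherin, which is known from neural and mesenchymal cells, had 4 counts in AdipKO organoids against 27 in WT organoids, 6.75-fold lower (2.35 to 26.5). Cdh9, a cadherin known from neurons, had 16 counts in AdipKO organoids against 1 in WT organoids, with an interval of 2.49 to 671-fold higher. Dsg3, a desmosomal cadherin of stratified epithelia, had 55 counts in AdipKO organoids against 21 in WT organoids, 2.62-fold higher (1.56 to 4.56). None of 16 further genes of desmosomes and hemidesmosomes was listed.

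The 4 listed claudins went both ways. Cldn8, a sealing claudin of the distal gut and kidney tubule, had 480 counts in AdipKO organoids against 179 in WT organoids, 2.68-fold higher (2.25 to 3.20). It lies on chromosome 16 (NCBI gene 54420). Cldn1, another sealing claudin on the same chromosome, had 14 counts in AdipKO organoids against 4 in WT organoids. Cldn18, the claudin of stomach and lung epithelium, had 53 counts in AdipKO organoids against 112 in WT organoids, 2.11-fold lower (1.51 to 2.99). Cldn11, known from myelin and testis, had 0 counts in AdipKO organoids against 12 in WT organoids. That was 4-fold lower with the 0 set to 3 counts (exact interval from 2.78). Cldn8 and Cldn18, the better counted of the 4, thus differed in direction. Of 27 partners of tight and adherens junctions, Cgnl1, which encodes the junction protein paracingulin, was listed alone, with 1536 counts in AdipKO organoids against 767 in WT organoids, 2.00-fold higher (1.84 to 2.19).

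The 4 listed integrins were all alpha chains, 2 lower and 2 higher in the AdipKO library. Itga9, a receptor for tenascin that pairs with the beta-1 chain, had 36 counts in AdipKO organoids against 93 in WT organoids, 2.58-fold lower (1.74 to 3.91). Itga4, a chain found on leukocytes among other cells that binds fibronectin and vascular adhesion molecules, had 14 counts in AdipKO organoids against 35 in WT organoids, 2.50-fold lower (1.31 to 5.03). Itgam, the CD11b chain of myeloid cells, had 57 counts in AdipKO organoids against 25 in WT organoids, 2.28-fold higher (1.40 to 3.81). Itgal, the LFA-1 chain of leukocytes, had 8 counts in AdipKO organoids against 0 in WT organoids. That was 2.67-fold higher with the 0 set to 3 counts (exact interval from 1.71). Of 17 intracellular and membrane partners of integrins, Tln2, which encodes a talin that links integrins to actin, was listed alone, with 1077 counts in AdipKO organoids against 490 in WT organoids, 2.20-fold higher (1.97 to 2.45).

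Markers of cells other than epithelium were searched for beside these genes. Of 15 immune markers, 2 were listed and both were higher in the AdipKO library, Itgam and Cd68, a lysosomal protein of macrophages, which had 235 counts in AdipKO organoids against 109 in WT organoids. Their summed counts were 292 in AdipKO organoids against 134 in WT organoids, and Ptprc, the defining leukocyte gene, was not listed. Of 15 fibroblast and smooth muscle markers, Vim alone was listed, with 109 counts in AdipKO organoids against 322 in WT organoids, 2.95-fold lower (2.37 to 3.71). Of 10 endothelial markers, Lyve1 had 211 counts in AdipKO organoids against 68 in WT organoids and Prox1, which enteroendocrine cells also express, had 131 in AdipKO organoids against 311 in WT organoids. Of 9 glial and neuronal markers, S100b had 24 counts in AdipKO organoids against 5 in WT organoids and Tubb3 had 16 in AdipKO organoids against 51 in WT organoids. The other markers were not listed and their levels are not known here, and the part of such cells in the values above was not tested.

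**Figure D4:**
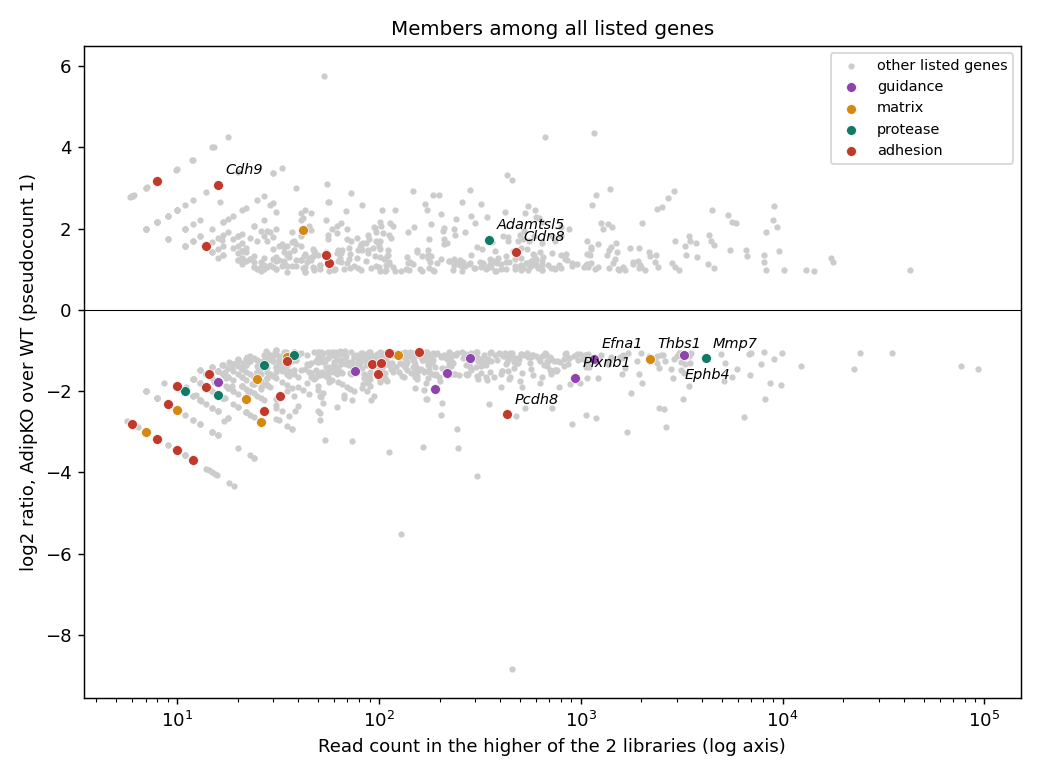
The vertical axis is the log2 ratio of AdipKO over WT with a pseudocount of 1 and the horizontal axis is the count in the higher library (log scale), with grey points for the other listed genes and coloured points for the 47 members by role. No gene lies near 0, since the tables were selected by fold change, and the largest ratios of the members, such as Cdh9 and Cldn11 with at most 16 counts, stand at the thinly counted end.

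The reads of the 47 genes were concentrated in few of them. The 5 genes with the highest counts per kilobase in the WT library, Mmp7, Ephb4, Efna1, Thbs1 and Plxnb1, held 74.2% of the counts of the 47 genes in AdipKO organoids against 81.6% in WT organoids. That order was taken in the WT library. In the AdipKO library Cldn8 and Adamtsl5, both higher there, stood among the first 5 in place of Thbs1 and Plxnb1. For length-scaled levels below them, Pcdh8 had 18 counts per kilobase in AdipKO organoids against 108.5 in WT organoids, whereas Cldn8 had 204 in AdipKO organoids against 76.0 in WT organoids. Adamtsl5 had 180 counts per kilobase in AdipKO organoids against 54.2 in WT organoids, and Thbs1 had 164 in AdipKO organoids against 378 in WT organoids.

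Direction also moved with base composition over the listed genes. Taking the longest protein-coding transcript of each gene, the 39 lower members had a median GC content of 52.8% and the 8 higher members 46.2%, beside 53.7% and 49.2% for all lower and all higher listed genes. Their median lengths were 4689 nucleotides for the lower and 3686.5 for the higher members, beside 3395.5 and 2460 nucleotides over all listed genes. When the listed genes were divided into 4 equal groups by rising GC content, 7 of 11, 11 of 12, 8 of 10 and 13 of 14 members were lower. Over all listed genes the shares of lower genes in the same groups were 39.3%, 63.2%, 67.5% and 77.4%. In each group the share of lower members was above that of all listed genes, at 10 to 14 members a group, and the part of GC content and length in the direction of these genes was not tested.

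**Figure D5:**
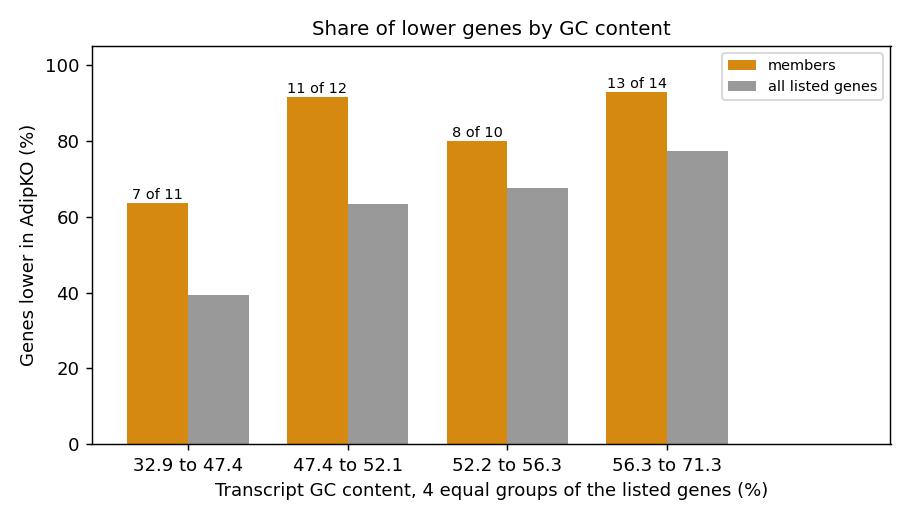
Bars give the share (%) of genes lower in the AdipKO library among members (orange, with counts above) and among all listed genes (grey), in 4 equal groups of listed genes by transcript GC content. The shares of members were 63.6%, 91.7%, 80.0% and 92.9% from low to high GC content, against 39.3% to 77.4% of all listed genes.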

How the data were processed

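Total RNA was read as paired ends on an MGISEQ-2000 by BGI, with mm10 as the genome build per the labels. For the aligner, the counter and strand handling, the sources used here give no name. The authors deposited estimated counts per gene for 1448 genes of type mRNA, selected at least by fold change, and depth per library was not analysed here. Any further limit of that selection is not known here. Counts were not scaled, since a selected table gives no library totals. Log2 ratios, AdipKO over WT, were taken gene by gene with a pseudocount of 1. Ratios without a pseudocount were given exact Clopper-Pearson 95% intervals after rounding to whole counts (SciPy 1.17.1), checked on simulated counts. For genes at 0 in 1 library the fold was taken with 3 counts in place of 0, which is not a lower limit. Reads are not independent molecules, so intervals cover counting error only. With 1 library per genotype no test was made. Every gene met by the symbol rule is named, with ratios and intervals mainly for those that reached 20 counts in either library. The members and the pathway and marker lists were chosen with earlier results of these data known. A gene of the matrix processing list is not reported here and was left out of that list's values. Coordinates and promoters came from RefSeq (GRCm38.p6, the assembly of mm10), which matched 47 of 47 gene IDs, and transcript length and GC content from GENCODE M21, which had values for 96.3% of the listed genes. Alternatives covered the pseudocount, scaling, minimum count, whole counts, the fold and the mean.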

Additional observations from a re-analysis of the deposited data

How the results depend on the processing

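No gene changed sign under a pseudocount of 0.1 or 5, equal listed totals or centring on the gap, over 188 values for the 47 genes. That outcome was fixed in advance and shows no robustness. A constant added to both counts keeps the sign, and the shifts of 0.22 and 0.04 were smaller than the limit set by the selection. Equal totals raised log2 ratios by up to 0.22, with no change for the 6 genes at 0 in the AdipKO library, left 29 genes at least 2-fold lower and 8 higher, and put Efna1 at -0.98, Ephb4 at -0.89, Mmp7 at -0.98, Thbs1 at -0.98 and Plxnb1 at -1.46. With at least 20 counts, 25 genes were lower and 5 higher, and at 4-fold 15 and 2, by construction fewer. Family medians that rest on few genes depended on the summary. The integrin median of -0.05 became 0.16 with equal totals, -1.26 with at least 20 counts and 0.43 as a mean. The cadherin median of -1.31 became -1.90 with at least 20 counts and -0.24 as a mean. The claudin median of 0.18 became -0.44 as a mean, and the ADAMTS value of 0.19 became -1.35 without Adamtsl5. No direction is given for these families. The other family and list medians kept their direction, but as means the guidance list came to -0.49 and the matrix processing list to -0.20, at 3 genes each. No paired analysis was possible because each genotype had 1 library. Few counts left wide intervals, such as 1.42 to 434-fold lower for Ltbp2 beside 2.04 to 2.30 for Ephb4.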
